A study of Capsicum annuum with 4 samples.

Results

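In the wild pepper Chiltepin (Capsicum annuum var. glabriusculum), 44 of 35884 counted gene models were both highly expressed and steady between green and red fruits. They were chosen from the measured values. A gene was taken when its level was at least 200 CPM (counts on a gene per 1e+06 counts of its library, after TMM normalization by the trimmed mean of M values) in all 4 RNA-Seq libraries and the highest of its 4 values was at most 1.3 times the lowest. Homologs of tomato ripening genes listed by the study were to be left out, and 0 of the 38 such genes used here met both limits. These 38 are not every candidate homolog of the study, so other homologs of ripening genes may be among the 44. The libraries came from greenhouse plants of wild-type Chiltepin, without treatment, at 20 days after anthesis (DAA, green immature fruits, 2 libraries) and 68 DAA (red mature fruits, 2 libraries). RNA of whole fruits, with placenta and seeds included, was pooled from several fruits for each library, and replicates were separate collections. Since level and spread chose the 44 genes, both are given as a description, and calls between the stages, made on the same values, carry no weight of their own.

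Genes that hold a constant transcript level across conditions serve as internal references when the expression of other genes is measured, for example by quantitative PCR. Fruit ripening is a demanding setting for such references, because chlorophyll and photosynthesis genes are lost while genes for carotenoids and cell wall degradation come up. Common reference genes of plants encode actin, tubulin, ubiquitin, elongation factors and other proteins that every cell needs. The deposited annotation of cv. CM334 gives identifiers and gene models and pairs none of the 44 with a name, so none of them is assigned to such a family here. They are described by their identifiers, levels and gene models.

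Counts on genes ranged from 12139415 (replicate 1 at 68 DAA) to 26130664 (replicate 2 at 68 DAA) per library. The stage labels were checked with named homologs. GLK2, a regulator of chloroplast development, averaged 137 ± 11.7 CPM in green fruits and 0.280 ± 0.0844 CPM in red fruits (SD, n = 2 each), while SGR1, PSY1, PG2 and both MADS-RIN genes averaged at most 17.6 CPM at 20 DAA and at least 67.1 CPM at 68 DAA. The tissue itself could not be checked, as no marker of pericarp, placenta or seed is named among these identifiers. In whole fruits, fewer cells of a type and less RNA per cell cannot be told apart.

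The 44 steady genes had means from 209.5 to 938 CPM over the 4 libraries with a median of 287 CPM, above a floor of 200 CPM set by the rule. Of these genes, 22 had a mean under 300 CPM, 11 lay between 300 and 500 CPM and 11 were above 500 CPM. CA.PGAv.1.6.scaffold100.18 had the highest level, with 993 and 979 CPM in the libraries at 20 DAA and 872 and 908 CPM at 68 DAA. Both of its green fruit libraries were above both red fruit libraries. CA.PGAv.1.6.scaffold65.175 followed with 839 and 966 CPM at 20 DAA and 833 and 914 CPM at 68 DAA, and CA.PGAv.1.6.scaffold905.16 with 805 and 823 CPM at 20 DAA and 815 and 956 CPM at 68 DAA. In these 2 genes the stages overlapped, and a single library stood highest. CA.PGAv.1.6.scaffold28.16 had 729 and 760.2 CPM at 20 DAA and 803 and 805 CPM at 68 DAA, and CA.PGAv.1.6.scaffold475.20 had 744 and 828 CPM at 20 DAA and 722 and 787 CPM at 68 DAA. CA.PGAv.1.6.scaffold551.41, the sixth, had 875 and 802 CPM at 20 DAA and 699.9 and 700.4 CPM at 68 DAA, so that the red fruit libraries were nearly equal and both below the green ones.

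**Figure D1:**
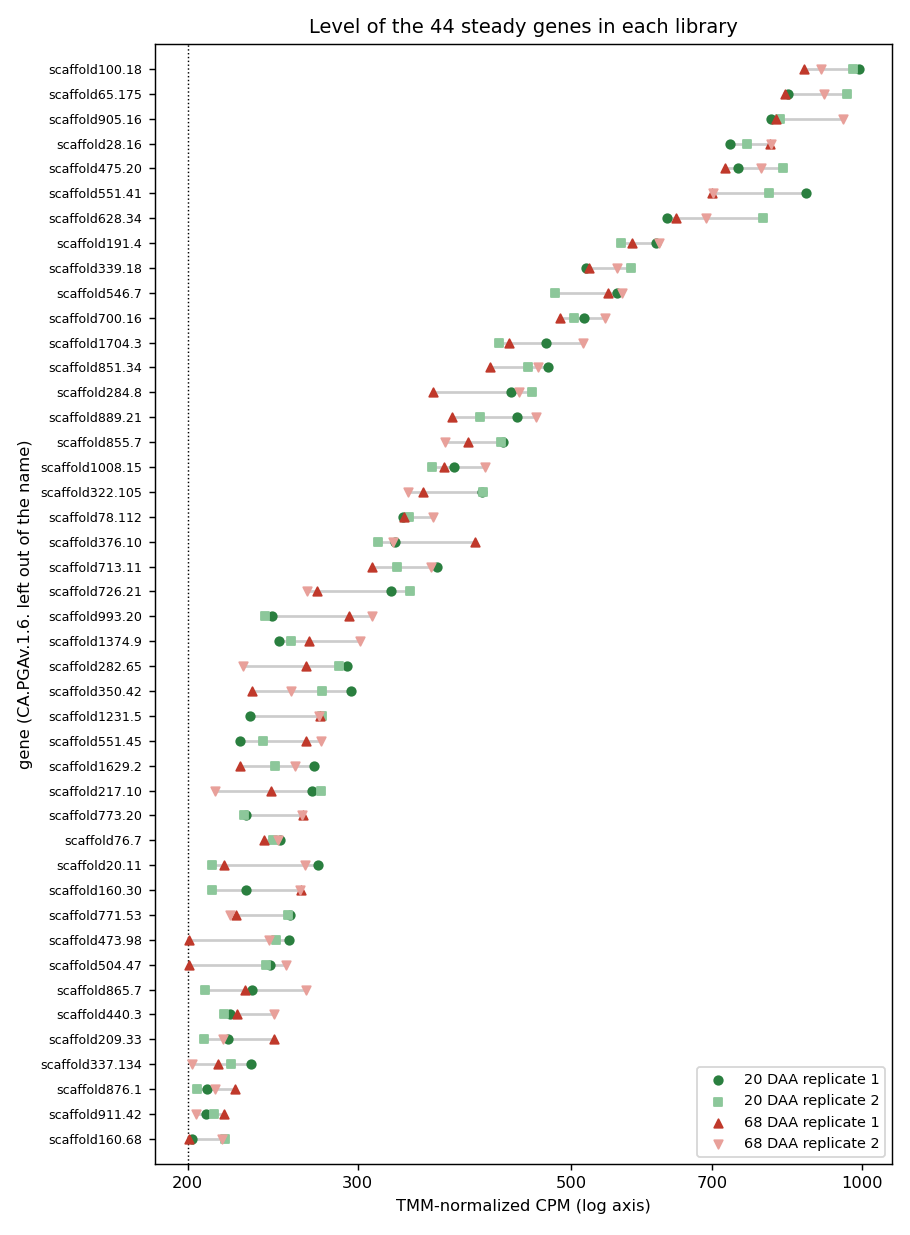
TMM-normalized CPM (log axis) of each of the 44 steady genes, 1 gene per line ordered by mean level, with 1 point per library and a grey bar from the lowest to the highest value. The genes run from 209.5 to 938 CPM on average, and no bar covers more than 1.29-fold.

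Levels of different genes can be compared only per length, and on the scale of mean CPM per kilobase of coding sequence the order changed. CA.PGAv.1.6.scaffold905.16, with only 411 bp of coding sequence, was first at 2068 CPM per kilobase. CA.PGAv.1.6.scaffold100.18 had 1699 CPM per kilobase, CA.PGAv.1.6.scaffold551.41 1602, CA.PGAv.1.6.scaffold628.34 1497 and CA.PGAv.1.6.scaffold851.34 1197. These 5 genes had short coding sequences, between 375 and 552 bp. The lengths leave out untranslated regions, while reads that reach into them from a coding exon can be counted. The order per kilobase is therefore approximate. CA.PGAv.1.6.scaffold65.175 was sixth with 677 CPM per kilobase. The lowest value, 77.1 CPM per kilobase, was that of CA.PGAv.1.6.scaffold876.1, and the median was 267.

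The highest to lowest ratio of the 44 genes ranged from 1.04 to 1.29 with a median of 1.18. It was at most 1.1 in 6 genes, between 1.1 and 1.2 in 20 and above 1.2 in 18. The steadiest gene was CA.PGAv.1.6.scaffold76.7, with 249 and 245 CPM at 20 DAA and 240.1 and 248 CPM at 68 DAA. Its stages overlapped, and its 4 values lay within 1.04-fold. CA.PGAv.1.6.scaffold911.42 had 209 and 213 CPM at 20 DAA and 218 and 204 CPM at 68 DAA (1.07-fold), and CA.PGAv.1.6.scaffold78.112 had 334 and 339 CPM at 20 DAA and 335 and 360 CPM at 68 DAA (1.08-fold). The next were CA.PGAv.1.6.scaffold160.68 (1.09-fold), CA.PGAv.1.6.scaffold876.1 (1.095-fold) and CA.PGAv.1.6.scaffold191.4 (1.097-fold). Under 5 other scalings and with each of the 4 libraries left out, CA.PGAv.1.6.scaffold76.7, CA.PGAv.1.6.scaffold78.112 and CA.PGAv.1.6.scaffold191.4 met both limits every time. The same 4 libraries had chosen the genes, so a pass is a description only. CA.PGAv.1.6.scaffold160.68, whose lowest value was 200.8 CPM, met them under 1 of the 5 scalings and without 1 of the 4 libraries, CA.PGAv.1.6.scaffold911.42 under 3 and without 2, and CA.PGAv.1.6.scaffold876.1 under 3 and without 3. All 6 steadiest genes had overlapping stages except CA.PGAv.1.6.scaffold876.1, which had 209 and 204 CPM at 20 DAA and 224 and 213 CPM at 68 DAA.

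Counting error was small in every one of these genes, since the lowest count of any of them in any library was 2364. The coefficient of variation over the 4 libraries had a median of 7.85%, against a median of 1.36% from counting alone. The spread that remained among the libraries was thus mostly larger than the sampling of reads gives. Each library was the highest for some genes and the lowest for others. Replicate 2 at 68 DAA was highest for 15 genes and replicate 1 at 68 DAA, the least deeply sequenced library, for 6, while replicate 1 at 68 DAA was lowest for 15 genes and replicate 2 at 20 DAA for 13. A gap in log2 CPM between the replicates had a median of 0.069 at 20 DAA and 0.12 at 68 DAA, and the median size of the log2 difference between the stage means was 0.11.

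Between the stages, the mean of a steady gene was higher at 68 DAA in 20 genes and lower in 24, and the log2 ratio of the stage means lay between -0.30 and 0.32 with a median of -0.01. In 19 genes both libraries of one stage were above both libraries of the other, 8 of them higher and 11 lower at 68 DAA. Over the 17160 tested genes, 87.1% were separated in this way, and 80.4% of the genes with at least 200 CPM in every library. The rule used these same values, so the lower share of the steady genes follows from their choice, and the same holds for the stage calls. By the quasi-likelihood test of edgeR at a false discovery rate (FDR) under 0.01, 0 of the 44 steady genes were called between the stages, where 57.5% of all tested genes were called (25.2% higher and 32.3% lower at 68 DAA), and 1 of the 44 had an unadjusted p under 0.05. With DESeq2 and limma-voom the counts were 0 and 0, with 3 and 2 genes at an unadjusted p under 0.05. A limit of 1.3-fold over the same 4 libraries leaves little room for a call, so nothing is read from these counts.

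The genes with the largest stage differences show what the limit of 1.3 still lets through. CA.PGAv.1.6.scaffold993.20 had 245 and 240.3 CPM at 20 DAA and 294 and 311 CPM at 68 DAA, a log2 ratio of 0.32. CA.PGAv.1.6.scaffold160.30 had 229.7 and 212 CPM at 20 DAA and 262 and 261 CPM at 68 DAA, a log2 ratio of 0.25. Both genes were higher in each red fruit library. CA.PGAv.1.6.scaffold726.21 went the other way, with 325 and 340.0 CPM at 20 DAA and 272 and 266 CPM at 68 DAA (log2 ratio -0.30), as did CA.PGAv.1.6.scaffold551.41 (log2 ratio -0.26). Without replicate 1 at 68 DAA, which leaves 1 library at that stage, the fitted log2 change of CA.PGAv.1.6.scaffold993.20 was 0.44. In 16 of the 44 genes the difference between the stage means was larger than the gap between the replicates of either stage. The limit of 1.3 bounded both quantities, and no such count was made over all genes, so nothing is read from it.

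**Figure D2:**
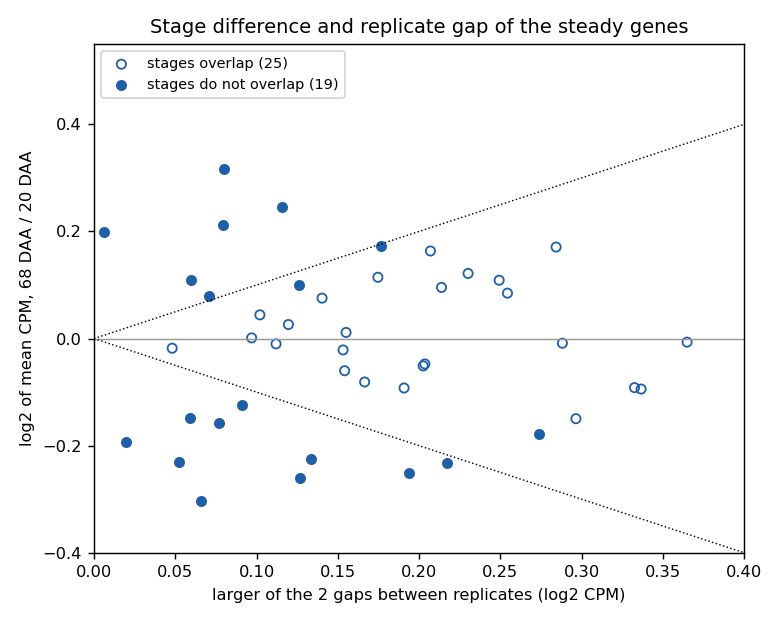
For each of the 44 steady genes, the log2 ratio of the mean CPM at 68 DAA to that at 20 DAA (vertical axis) against the larger of the 2 gaps between replicates in log2 CPM (horizontal axis), with dotted lines where both are equal. The 19 genes whose stages do not overlap (filled) include all 16 that lie outside the lines, and the 25 others (open) lie between them.

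The limits cut through a continuous range of values. Just inside the ratio limit were CA.PGAv.1.6.scaffold993.20 and CA.PGAv.1.6.scaffold217.10, at 1.292 and 1.288. Just outside it were CA.PGAv.1.6.scaffold185.39 and CA.PGAv.1.6.scaffold1076.13, at 1.301 and 1.309. In both of the latter the stages overlapped, and the lowest and the highest value were those of the replicates at 68 DAA, with 294 and 382 CPM in the first and 291 and 382 CPM in the second. At the level limit, CA.PGAv.1.6.scaffold504.47 and CA.PGAv.1.6.scaffold473.98 were just inside, with lowest values of 200.5 and 200.7 CPM, both in replicate 1 at 68 DAA. CA.PGAv.1.6.scaffold34.8 (lowest value 199.1 CPM) and CA.PGAv.1.6.scaffold473.154 (194.9 CPM) were just outside, although their ratios were 1.13 and 1.204.

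Among the 209 genes with at least 200 CPM in every library, 21.1% met the ratio limit, and among all tested genes 12.5% did. The other 165 genes had a median ratio of 1.93, and 75 of them differed more than 2-fold and 17 more than 4-fold. They include ASR1, a gene of the abscisic acid, stress and ripening family in tomato, with 650.1 and 747 CPM at 20 DAA and 1315 and 1467 CPM at 68 DAA. They also include homologs of CGS and XTH5, with ratios of 1.79 and 2.56. The share of steady genes was also counted by level. By the lowest of the 4 values, 35 of 172 genes between 200 and 500 CPM were steady (20.3%), as were 9 of 28 between 500 and 1000 CPM (32.1%) and 0 of 6 at 1000 CPM or more. The most even of those 6 was CA.PGAv.1.6.scaffold608.14 on chromosome 9, named after its values were seen, with 1420 and 1011 CPM at 20 DAA and 1053 and 1409 CPM at 68 DAA, a ratio of 1.40 that comes from the replicates of both stages. Below 200 CPM the same ratio limit was met by 25.4% of 591 genes between 100 and 200 CPM and 25.4% of 1631 between 50 and 100 CPM. Between 10 and 50 CPM it was met by 18.8% of 6453 genes. The median coefficient of variation from counting alone was 4.21% in that class and 1.19% between 200 and 500 CPM. Its part in these shares was not tested.

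**Figure D3:**
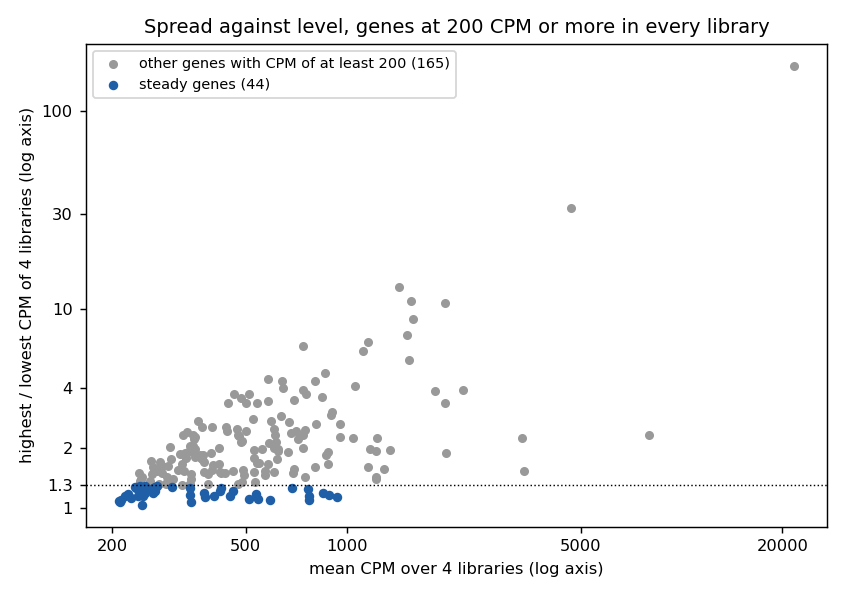
Highest to lowest CPM ratio (log axis) against mean CPM over the 4 libraries (log axis) for the 209 genes with at least 200 CPM in every library, with the limit of 1.3 as a dotted line. The 44 steady genes (blue) all average below 1000 CPM, while 27 of the 165 other genes (grey) average above it.

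Because all 4 libraries chose the genes, steadiness was also read in libraries that had no part in the choice. Genes with at least 200 CPM and a ratio of at most 1.3 in 1 library of each stage were chosen, and their ratio was read in the other 2 libraries, each pair with its own TMM factors. With replicates 1 choosing, 55 of 81 genes (67.9%) kept a ratio of at most 1.3 in replicates 2. Of all genes with at least 200 CPM there, 34.8% did. The exact 95% confidence interval of the 67.9%, from 56.6% to 77.8%, treats genes as independent and does not cover other fruits. With replicates 2 choosing, 50 of 79 genes kept such a ratio in replicates 1 (63.3%, against 33.1%). The crossed pairs gave 59 of 76 genes (77.6%, against 31.4%) and 61 of 77 genes (79.2%, against 32.8%). Of the 81, 79, 76 and 77 chosen genes, 44, 38, 40 and 44 belonged to the 44 steady genes. Those met the limit in all 4 libraries by their choice, so the shares describe how often the rule repeats. They are no separate support for the 44. In each direction some genes chosen from 2 libraries were past the limit in the other 2, and the highest ratio among them ranged from 2.16 to 6.85.

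Ratios between genes within a library do not depend on how the libraries are scaled. For each steady gene, the stability measure M was taken as the mean, over the other steady genes, of the standard deviation of the log2 ratio of both genes across the 4 libraries, so that a low M marks a gene that moves with the rest. M ranged from 0.111 to 0.212 with a median of 0.149. All genes in it were chosen for a low ratio in the same libraries. The size and order of M are thus a description and no separate support. The lowest values were those of CA.PGAv.1.6.scaffold76.7 (0.111), CA.PGAv.1.6.scaffold700.16 (0.114), CA.PGAv.1.6.scaffold78.112 (0.114) and CA.PGAv.1.6.scaffold191.4 (0.119). CA.PGAv.1.6.scaffold700.16 had 516 and 503 CPM at 20 DAA and 486 and 541 CPM at 68 DAA, and CA.PGAv.1.6.scaffold191.4 had 611 and 563 CPM at 20 DAA and 578 and 617 CPM at 68 DAA. Of the 946 pairs of steady genes, 584 (61.7%) kept their ratio within 1.3-fold over the 4 libraries. The same was true of 1101 of 13530 pairs (8.14%) of the other genes with at least 200 CPM. Both shares follow largely from the choice, since the limit of 1.3 was set on these libraries and separated the 2 groups of genes.

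The structure of the gene models was not used in the choice. The deposited models hold coding exons only, so lengths are coding lengths and reads that lay wholly on untranslated regions were not counted. The 44 steady genes had a median of 6 coding exons, a median coding length of 1230 bp and a median span of 4178 bp from start to stop codon. The medians were 5 exons, 1284 bp and 3585 bp for the 165 other genes with at least 200 CPM, and 5 exons for all tested genes. In the class of 5 to 9 coding exons stood 22 of the 44 steady genes (50%), against 33.3% of the 165 other genes, 31.2% of the tested genes and 23.2% of all gene models. Only 2 steady genes (4.55%) had a single coding exon, against 12.7%, 15.9% and 24.6%. These shares are a description and no test was made over genes.

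**Figure D4:**
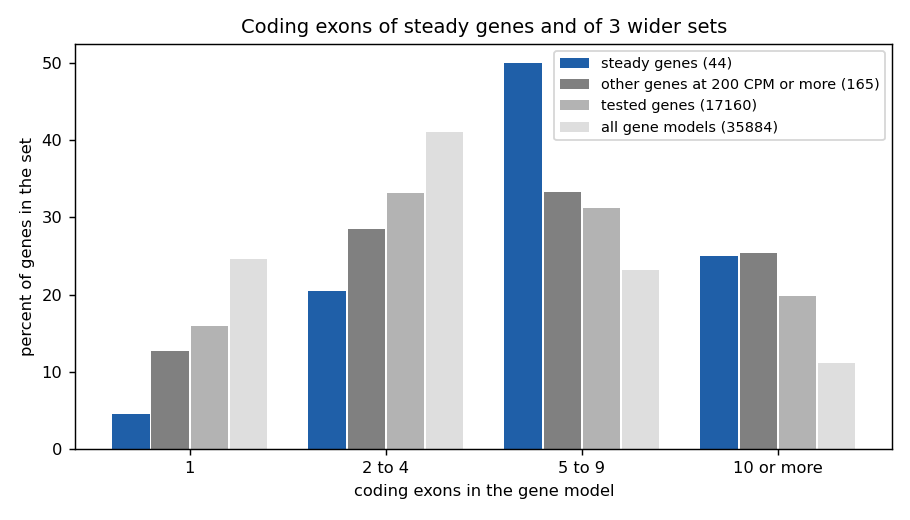
Percent of genes (vertical axis) with 1, 2 to 4, 5 to 9 or 10 or more coding exons in the 44 steady genes, the 165 other genes with at least 200 CPM, the 17160 tested genes and all 35884 gene models. The steady genes have 50% in the class of 5 to 9 exons and 4.55% with a single exon.

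On version 1.6 of the CM334 genome, the largest steady gene model was CA.PGAv.1.6.scaffold876.1 on chromosome 4 from 150261571 to 150290889 (minus strand), with 22 coding exons spread over 29319 bp. CA.PGAv.1.6.scaffold217.10 on chromosome 12 (133910422 to 133935195, minus strand) spanned 24774 bp with only 6 exons and 885 bp of coding sequence, because a single intron measured 16982 bp. CA.PGAv.1.6.scaffold475.20 on chromosome 4 (222884258 to 222891075, minus strand) had 18 exons in 6818 bp. The single-exon genes were CA.PGAv.1.6.scaffold78.112 on chromosome 8 (126040693 to 126041853, plus strand, 1161 bp) and CA.PGAv.1.6.scaffold337.134 on chromosome 7 (245304674 to 245305012, plus strand, 339 bp). The steadiest gene, CA.PGAv.1.6.scaffold76.7, lies on chromosome 4 from 56241438 to 56254071 (minus strand) with 12 coding exons. The gene with the highest mean CPM, CA.PGAv.1.6.scaffold100.18, lies on chromosome 1 from 193713079 to 193715704 (plus strand) with 5. The steady genes thus ran from a single short exon to models with more than 20 exons.

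The steady genes were spread over the genome. Of the 44, 38 lay on 10 chromosomes and 6 on unplaced scaffolds. Chromosome 1 held 6, and chromosomes 6, 7 and 9 held 5 each. Chromosomes 5 and 10 held none and 7 other genes with at least 200 CPM each, where 21.1% of all such genes were steady. With so few genes per chromosome, nothing is read from this. No gene model of the whole annotation overlaps another, and the smallest gap beside a steady gene was 473 bp, at CA.PGAv.1.6.scaffold905.16. None of the 44 had another steady gene as its direct neighbour. The closest pair was CA.PGAv.1.6.scaffold551.41 (270007117 to 270009715) and CA.PGAv.1.6.scaffold551.45 (270041533 to 270045695) on chromosome 9, which lie 31817 bp apart with other gene models between them. Of the 88 flanking gene models, 2 had at least 200 CPM in every library, beside 209 of all 35884 gene models. Of the 63 that were tested, 28 were called at an FDR under 0.01 by the edgeR test, which is 44.4% beside the 57.5% of all tested genes. The annotation tags each model with its evidence, and 31 of the 44 steady genes (70.5%) carried the tag ISGAP, against 68.5% of the 165 other genes and 74.5% of the tested genes. The tag UNIPROT was on 7 steady genes (15.9%), against 25.5% and 2.58%. The file does not explain these tags.

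Several steady genes had a counterpart with the same exon structure. This comparison was chosen after the levels were seen, but it uses the gene models only. Of the 42 steady genes with more than 1 coding exon, 10 (23.8%) shared the number, order and length of all coding exons with at least 1 other gene model, against 18.1% of the multi-exon genes among the 165 and 5.29% of those tested. Such a match points to possible copies, whose sequences were not compared. Reads that fit several places equally well were left out of the counts by HTSeq-count (3.07% to 5.22% of its entries per library), so the split of counts between near-identical copies is uncertain.

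CA.PGAv.1.6.scaffold191.4 and CA.PGAv.1.6.scaffold20.11 were the only matching pair in which both were steady. They lie on chromosome 8 from 90276928 to 90279767 and from 74847945 to 74850774, and each has a first exon of 91 bp and a second of 2441 bp. CA.PGAv.1.6.scaffold20.11 had 273 and 212 CPM at 20 DAA and 218 and 264 CPM at 68 DAA, a ratio of 1.29 against 1.097 in its counterpart. The share of CA.PGAv.1.6.scaffold191.4 in the counts of both was 69.1% and 72.6% at 20 DAA and 72.6% and 70.0% at 68 DAA, and their sum stayed within 1.14-fold. The stages overlapped in each gene, in the share and in the sum.

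The other matching models, 11 in all, were not steady by the rule. Of the 10 that were tested, 2 rose and 4 fell between 20 and 68 DAA by the edgeR test at an FDR under 0.01, and 4 were not called. This is near the share over all tested genes, of which 57.5% were called, 25.2% higher and 32.3% lower at 68 DAA. CA.PGAv.1.6.scaffold206.13 on chromosome 2 has the 12 exon lengths of CA.PGAv.1.6.scaffold76.7, the steadiest gene, and rose from 86.3 ± 1.097 to 168 ± 6.35 CPM (SD, n = 2 each), with a log2 fold change of 0.96 and an adjusted p of 0.000512 from the edgeR test. The share of CA.PGAv.1.6.scaffold76.7 in the counts of both went from 74.1% and 74.1% at 20 DAA to 58.2% and 60.3% at 68 DAA. For CA.PGAv.1.6.scaffold551.41, with 5 exons, 1 matching model rose and another fell. CA.PGAv.1.6.scaffold479.52 on chromosome 3 rose from 187 ± 3.69 to 452 ± 43.4 CPM (SD, n = 2, adjusted p = 0.000451, edgeR), and CA.PGAv.1.6.scaffold59.19 on chromosome 1 fell from 163 ± 27.2 to 76.8 ± 7.17 CPM (SD, n = 2, adjusted p = 0.00154, edgeR). The sum of all 3 models was 1246 and 1129 CPM at 20 DAA and 1264 and 1193 CPM at 68 DAA, within 1.12-fold, beside 1.25-fold for the steady gene alone. In no other group was the sum more even than its most abundant steady gene, and for CA.PGAv.1.6.scaffold76.7 the sum had a ratio of 1.25 beside 1.04 for the gene alone.

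The largest change among the matching models was found beside CA.PGAv.1.6.scaffold473.98. Its match CA.PGAv.1.6.scaffold1300.3 on chromosome 2 fell from 21.1 ± 1.35 to 3.53 ± 0.641 CPM (SD, n = 2, log2 fold change -2.60, adjusted p = 0.000107, edgeR). CA.PGAv.1.6.scaffold713.11 has its match, CA.PGAv.1.6.scaffold713.12, as its direct neighbour 12132 bp away on chromosome 9, and this neighbour was not called (271 ± 22.1 and 211 ± 1.68 CPM, SD, n = 2). CA.PGAv.1.6.scaffold889.21 has a match on an unplaced scaffold that received 5, 4, 0 and 0 counts in the 4 libraries, so nearly all counts of that pair belong to the steady gene. Whether a steady gene and its match differ in their change between the stages was not tested. The summed level of the 9 groups of matching models had a ratio from 1.12 to 1.35, to which the steady genes, chosen for a low ratio, contributed most of the counts.

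**Figure D5:**
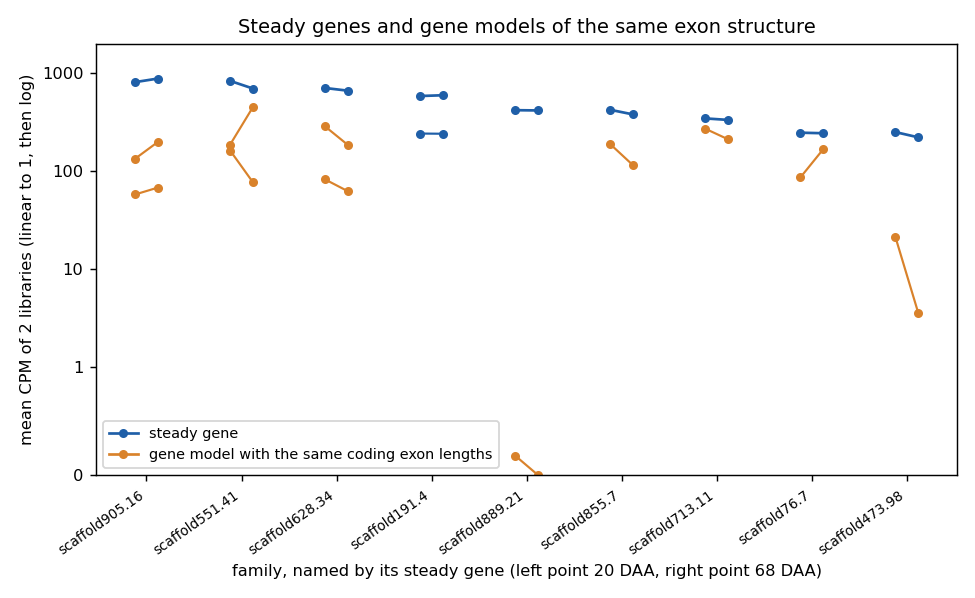
Mean CPM of 2 libraries at 20 DAA (left point) and at 68 DAA (right point) for the 9 groups of gene models with the same coding exon lengths, on an axis that is linear to 1 and logarithmic above. The steady genes (blue) run nearly level by their choice. Among the other models, CA.PGAv.1.6.scaffold479.52 (187 to 452 CPM) and CA.PGAv.1.6.scaffold206.13 (86.3 to 168 CPM) go up and CA.PGAv.1.6.scaffold1300.3 (21.1 to 3.53 CPM) goes down. Of the 10 tested, 2 were called higher and 4 lower at 68 DAA, and 4 were not called, where 57.5% of all tested genes were called.

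Steadiness depended on how the libraries were scaled. Together the 44 genes took 1.89% and 1.92% of all gene counts in the green fruit libraries and 1.63% and 1.55% in the red ones, and after TMM normalization their summed level was 17530.4, 17536.1, 16758 and 17773 CPM in the same libraries. Scaled by library totals alone, their median log2 ratio of 68 to 20 DAA was -0.25, where that of all tested genes was -0.30, and 20 of the 44 still met both limits among 43 genes that did (45.5% of the former and 46.5% of the latter). DESeq2 size factors kept 41 of the 44 among 42 genes (93.2% and 97.6%), and upper-quartile factors 31 among 40 (70.5% and 77.5%). With 1 library left out, the number of steady genes lay between 45 and 69, the highest without replicate 2 at 68 DAA. CA.PGAv.1.6.scaffold76.7, CA.PGAv.1.6.scaffold78.112, CA.PGAv.1.6.scaffold700.16, CA.PGAv.1.6.scaffold191.4, CA.PGAv.1.6.scaffold28.16 and CA.PGAv.1.6.scaffold851.34 belonged to the 12 genes that met both limits under all 5 other scalings and with each library left out in turn. The scalings alone kept the same 12. A gene that passed in all 4 libraries can fail with fewer only through new TMM factors. With each library left out, 34 of the 44 passed every time. TMM factors from filtered genes and those without the 10 highest genes of each library kept 43 and 44 of the 44.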

How the data were processed

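Chiltepin fruits at 20 and 68 DAA were each represented by 2 RNA-Seq libraries. The authors trimmed reads with Trimmomatic 0.36, aligned them with HISAT2 2.1.0 to the CM334 genome (version 1.6) and deposited raw counts per gene from HTSeq-count 0.11.0 in union mode, together with the gene models (the strand setting is not given in the sources used here). Between 31.7% and 38.2% of the entries named no gene and were left out. Counts were scaled by TMM over all gene rows with edgeR 4.0.16 in R 4.3.3. Genes whose average log2 CPM reached 1 were tested between the stages with the quasi-likelihood test and Benjamini-Hochberg adjustment (limit FDR 0.01). DESeq2 1.42.0, limma-voom 3.58.1, other scalings and limits, a block on the replicate number and leaving out each library were alternatives. The members and lists were chosen with earlier results of these data known. Named genes are the extremes of level, level per kilobase, ratio, M, stage difference, exon number and span, the single-exon genes, those beside each limit, and neighbours. Figures were drawn with Python 3.11.15 and matplotlib 3.10.9. Sequences, gene names, functional terms and Serrano libraries were not used here.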

Additional observations from a re-analysis of the deposited data

How the results depend on the processing

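The number of steady genes was 44. It stayed within 1.5 times that number under every other scaling tried (40 to 60 genes) and followed the limits closely, with 194 genes at a limit of 100 CPM, 9 at 500 CPM, 2179 with no limit but 10 counts per library, 26 at a ratio of 1.2, 73 at a ratio of 1.5, 86 by stage means only, and 81 and 79 from the replicate 1 and replicate 2 pairs alone. With a library left out it ranged from 45 to 69, where fewer values enter the ratio. When the 10 highest genes of each library were removed, CPM rose for all other genes and 60 passed. The median level moved from 287 CPM to 311 with factors from filtered genes, 341 with DESeq2 size factors, 300.4 with upper-quartile factors and 339 with totals, and ranged from 279.8 to 338 with a library left out. The median exon number (5 to 7), M and the held-out share, recomputed after the data were seen, kept within their spread over genes. Of all tested genes, 9866 were called, and 6125 to 11562 with a library left out, where 6125 were called without replicate 1 at 20 DAA and 6155 without replicate 2 at 20 DAA. Of the steady genes 0 to 1 were called, the 1 without replicate 1 at 68 DAA. Over the tested genes, the difference between replicates 1 and 2 at 20 DAA was nearly uncorrelated with that at 68 DAA (0.025). Whether the replicate numbers mark a shared batch cannot be told from this value. With the replicate number as a block, 9931 genes and 0 steady genes were called. With 2 libraries per stage and 12139415 counts in the smallest, the spread of single genes is poorly known.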
